A study of Mus musculus with 9 samples.

Results

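The 39 genes described here encode matrix glycoproteins, proteoglycans and crosslinking enzymes, the non-collagen part of the extracellular matrix that fibroblasts secrete. They were chosen by symbol and matched to 39 of the 46603 Ensembl gene identifiers in each library through the GENCODE M21 annotation of GRCm38. RNA was sequenced from mouse embryonic fibroblasts of the BALB/c strain, made from embryos of day 10.5 and carrying a knockout of Actb, the β-actin gene. The mimic poly(I:C), which is double-stranded RNA made in vitro, or poly(dA:dT), its DNA counterpart, was delivered at 10 µg/ml and cells were taken after 6 h. Mock cells received only the lipid reagent, Lipofectamine 2000 in Opti-MEM. Each group had 3 libraries, 9 in all. Every group, mock included, carried the Actb knockout, so no wild-type cells enter any comparison here. The labels do not say whether the line is a single clone.

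The extracellular matrix is a network that cells build outside themselves and attach to through integrins and syndecans. Fibronectin and collagens form its fibrils, fibrillin and fibulins scaffold elastic fibres, and laminins, nidogens and perlecan form basement membranes. Lysyl oxidases crosslink collagen and elastin, and proteoglycans carry sugar chains that hold water and growth factors. Long double-stranded RNA and DNA in the cytosol are read as signs of virus infection and start interferon production, and fibroblasts are among the cells that respond.

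Assigned counts summed to between 16082772 and 22382837 per library after poly(I:C), between 20738109 and 23185293 after poly(dA:dT), and between 19826550 and 29219797 in mock. Actb averaged 32.3 ± 1.34 CPM (counts scaled to library size by edgeR) after poly(I:C), 30.5 ± 1.29 after poly(dA:dT) and 33.2 ± 1.29 in mock (SD, n = 3), and no comparison called it. Actb reads were thus present in every library. Ifnb1, which encodes interferon β, had between 1377 and 2048 counts after poly(I:C), between 99 and 120 after poly(dA:dT), and 1, 0 and 0 in mock. The 10 fibroblast markers summed to between 3996.7 and 4255.7 CPM after poly(I:C), between 4823.7 and 4953.2 after poly(dA:dT), and between 5535.7 and 5731.2 in mock. None of these 10 was at 0 in all libraries, nor was any listed epithelial, smooth muscle, chondrocyte or adipocyte marker. Ptprc (leukocytes), Emcn (endothelium), Myod1 and Myf5 (skeletal muscle) and Sox2 (neural) had 0 counts in all 9. Other markers in the lists of these genes did have counts. Osteoblast markers summed to between 86.1 and 92.4 CPM after poly(I:C), between 48.7 and 56.2 after poly(dA:dT) and between 43.8 and 46.6 in mock, with Ibsp at 0. Chondrocyte markers summed to between 28.4 and 28.5 CPM after poly(I:C), between 16.3 and 18.5 after poly(dA:dT) and between 14.0 and 15.5 in mock. Endothelial markers summed to between 5.58 and 6.83 CPM after poly(I:C), between 3.69 and 4.87 after poly(dA:dT) and between 1.95 and 2.61 in mock. Of these 6 endothelial markers 4 were tested, and 3 of them were called and at least 2-fold higher after each mimic. Over all genes tested, 13.1% were called and at least 2-fold higher after poly(I:C) and 3.84% after poly(dA:dT). The largest log2 fold changes among the 4 endothelial markers were 7.49 after poly(I:C) and 5.24 after poly(dA:dT). At the sums above, such a rise starts from a mock level under the 0.447 CPM needed for testing. That marker could thus be tested only through libraries of the mimics. Macrophage markers summed to at most 3.66 CPM after poly(I:C), 3.51 after poly(dA:dT) and 4.9 in mock, and skeletal muscle markers to at most 12.5, 16.4 and 18.0 CPM in the same order. Smooth muscle markers summed to between 318.7 and 339.3 CPM after poly(I:C), between 373.6 and 394.6 after poly(dA:dT) and between 432.1 and 446.8 in mock. Epithelial, neural and adipocyte markers summed to at most 23.8, 368.6 and 97.4 CPM after poly(I:C), 26.9, 390.8 and 107.2 after poly(dA:dT), and 27.7, 408.3 and 131.8 in mock. Most marker sums moved with the groups, and their part in the results below was not tested. In bulk RNA, fewer cells of a type and less RNA per cell cannot be told apart.

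Of the 32 matrix genes tested, 18 fell after both mimics, while Fn1, Aspn and Loxl3 rose after both. Of the 39 members 32 were abundant enough to test, and each of the 32 passed the filter in every group taken alone. Adjusted p-values are edgeR's, from its quasi-likelihood test with Benjamini-Hochberg adjustment over all 14176 genes tested, and a gene is called at an adjusted p under 0.05. After poly(I:C), 5 members rose, 23 fell and 4 were not called against mock, where 76.1% of all genes were called, 39.8% as higher and 36.3% as lower. After poly(dA:dT), 6 members rose, 20 fell and 6 were not called against mock, where 52.8% of all genes were called, 26.6% as higher and 26.2% as lower. With scaling by total assigned counts in place of TMM factors, 8 members rose and 15 fell after poly(dA:dT), where 5000 of all genes were called higher and 2392 lower, or 67.6% of the calls as higher in place of 50.3%. After poly(I:C), total counts gave 7 members higher and 22 lower, with 62.1% of the calls over all genes as higher in place of 52.4%. With DESeq2, 3 members rose and 18 fell after poly(dA:dT), of 33 members with an adjusted p. Over all genes that setting called 2890 higher and 3469 lower, or 45.4% of the calls as higher in place of 50.3%. The median log2 fold change of the 32 members was -0.42 after poly(I:C) and -0.17 after poly(dA:dT), beside 0.04 and 0.01 for all genes tested. Both comparisons use the same 3 mock libraries.

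**Figure D1:**
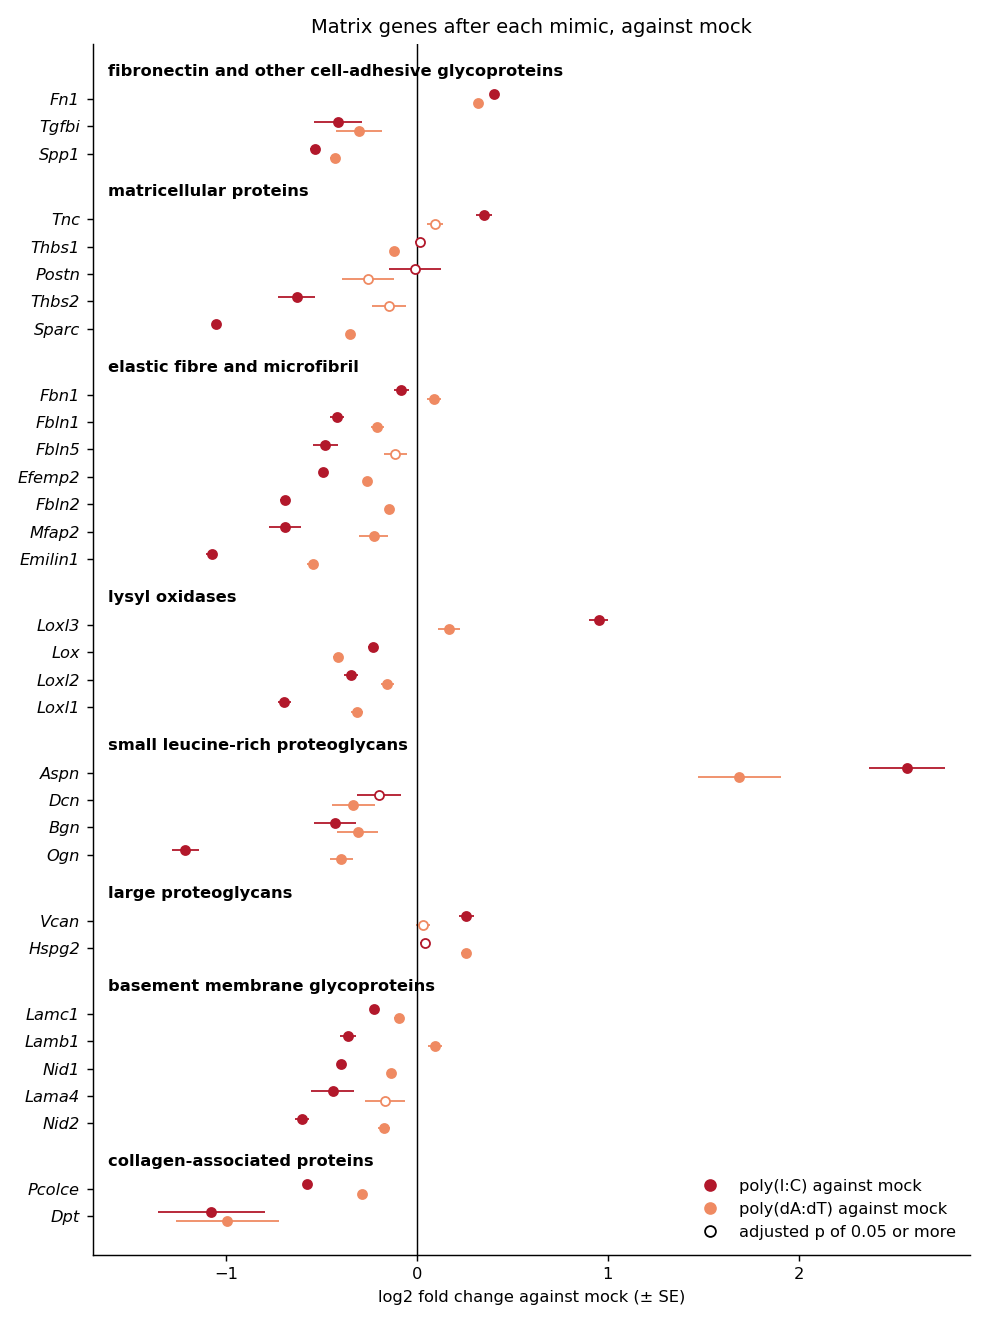
Log2 fold change against mock (horizontal axis, point ± SE) of the 32 tested matrix genes, grouped by role, after poly(I:C) (dark red) and poly(dA:dT) (orange); open symbols have an adjusted p of 0.05 or more. Most points lie left of 0 in both comparisons, and Aspn lies farthest to the right, at 2.57 after poly(I:C) and 1.69 after poly(dA:dT).

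Most of these changes were small. After poly(I:C), 1 member was called and at least 2-fold higher (Aspn), as were 13.1% of all genes, and 4 were at least 2-fold lower (Ogn, Dpt, Emilin1 and Sparc), as were 1.04% of all genes. After poly(dA:dT), Aspn alone among the 32 was at least 2-fold higher, as were 3.84% of all genes, and no member was at least 2-fold lower, as were 0.0635% of all genes. In each comparison the CPM values of the groups did not overlap for 27 of the 32 members, beside 76.8% of all genes for poly(I:C) against mock and 57.3% for poly(dA:dT) against mock. Abundant genes fell more often than all genes tested. Among the 25 members with a mean of at least 10 CPM, 4 rose and 19 fell after poly(I:C), where 84.5% of 9626 such genes were called, 36.7% as higher and 47.8% as lower. After poly(dA:dT), 5 of these 25 rose and 16 fell, where 65.9% of the 9626 were called, 29.2% as higher and 36.7% as lower.

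The directions after the mimics can be set side by side, although they share mock. The 18 members that fell after both stand beside 24.3% of all genes, and the 3 that rose after both beside 23.8%. Fbn1 and Lamb1 rose after poly(dA:dT) and fell after poly(I:C), a pattern found in 1.23% of all genes, with limits of the poly(dA:dT) call in both, and of the poly(I:C) call of Fbn1, given below. Against mock, Hspg2 was called higher after poly(dA:dT) and not called after poly(I:C), Tnc and Vcan were called higher after poly(I:C) and not called after poly(dA:dT), and Postn was called after neither. The mimics were also compared directly. Against poly(dA:dT), 7 members were higher after poly(I:C), 20 were lower and 5 were not called, where 63.4% of all genes were called, 31.3% as higher and 32.1% as lower. The median of the 32 members was -0.20 in this comparison, and 27 members had CPM values that did not overlap, beside 66.1% of all genes. No member differed by 2-fold or more between the mimics, where 7.62% of all genes were called and at least 2-fold higher and 0.409% at least 2-fold lower. Of the 25 members with at least 10 CPM, 6 were higher and 19 lower after poly(I:C) than after poly(dA:dT), where 73.1% of the 9626 such genes were called, 29.9% as higher and 43.2% as lower.

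Together the 39 genes took under 1% of each library, and Fn1 and the sum of the rest moved in opposite directions. Their share of assigned counts was 0.663, 0.666 and 0.677% after poly(I:C), 0.722, 0.726 and 0.722% after poly(dA:dT), and 0.71, 0.713 and 0.709% in mock. Without Fn1 the share was 0.401, 0.405 and 0.411% after poly(I:C), 0.483, 0.483 and 0.478% after poly(dA:dT), and 0.527, 0.53 and 0.523% in mock. The groups did not overlap in the share without Fn1, and poly(I:C) was the lowest. Of the counts on the 39 genes, Fn1 alone held 39.3 to 39.5% after poly(I:C), 33.1 to 33.7% after poly(dA:dT), and 25.7 to 26.3% in mock.

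**Figure D2:**
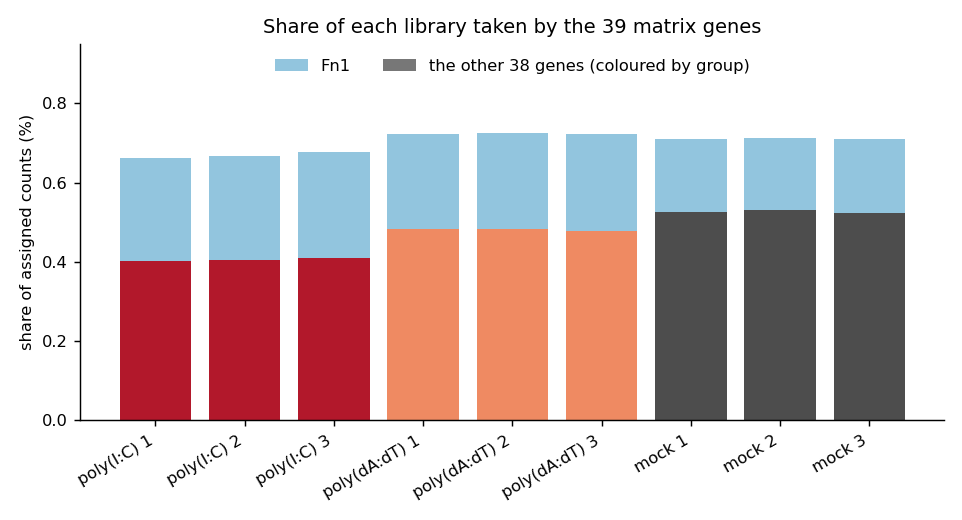
Share of assigned counts (%, vertical axis) taken by the 39 matrix genes in each of the 9 libraries, with Fn1 in light blue above the other 38 genes in the group colour. The lower part is shortest after poly(I:C), at 0.401 to 0.411%, and tallest in mock, at 0.523 to 0.53%, while the Fn1 part is larger after both mimics than in mock.

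Levels of different genes were compared as counts per kilobase of merged exon, scaled to library size (RPKM). By this scale Sparc was the highest member in mock, followed by Pcolce, then by Spp1 and Fn1, whose mock libraries overlapped, and then by Efemp2. Sparc averaged 147.2 after poly(I:C), 239.3 after poly(dA:dT) and 305.4 RPKM in mock. Fn1 averaged 217.6 after poly(I:C), 205.4 after poly(dA:dT) and 164.6 in mock, so it was the highest member after poly(I:C), where Sparc was below it. Other neighbours in the mock order that overlapped were Loxl1, Emilin1 and Lox, then Fbn1, Tnc and Loxl3, then Thbs2 and Tgfbi, then Bgn and Dcn, and Dpt and Lama4. Aspn was the lowest tested member in mock, at 2.33 after poly(I:C), 1.27 after poly(dA:dT) and 0.39 RPKM in mock.

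**Figure D3:**
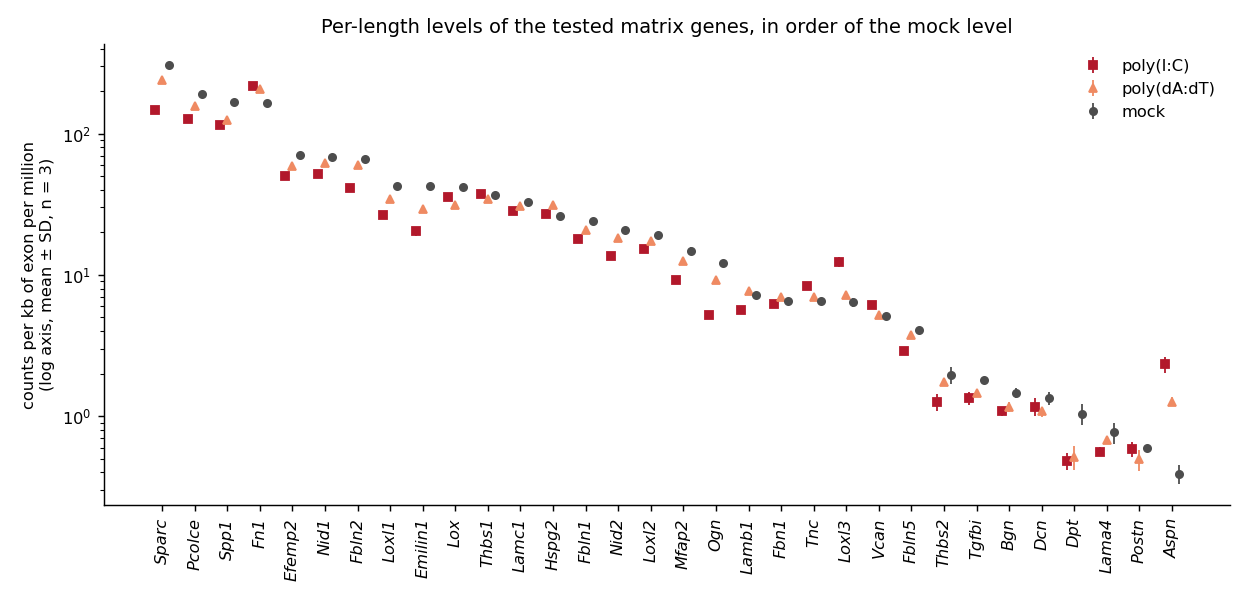
Per-length level (RPKM, log axis, mean ± SD of 3 libraries) of the 32 tested members, ordered by their mock level from left to right, for poly(I:C) (squares), poly(dA:dT) (triangles) and mock (circles). Sparc leads in mock at 305.4, and Aspn is last in mock at 0.39, with its poly(I:C) mean at 2.33.

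Among the 3 cell-adhesive glycoproteins, fibronectin rose and the other 2 fell after each mimic. Over all genes, 39.8% rose and 36.3% fell after poly(I:C), and 26.6% rose and 26.2% fell after poly(dA:dT). Fn1 (ENSMUSG00000026193, chromosome 1, 71585520 to 71653200, minus strand, GRCm38) encodes fibronectin, the dimer that integrins stretch into fibrils. It had 2533.3, 2525.0 and 2568.5 CPM after poly(I:C), 2374.3, 2411.1 and 2413.3 CPM after poly(dA:dT), and 1917.1, 1911.8 and 1941.5 CPM in mock. All 3 groups were separate, with poly(I:C) highest. Fn1 had a log2 fold change of 0.40 ± 0.016 (SE) after poly(I:C), a fold of 1.32 (edgeR adjusted p = 2.07e-55), and 0.32 ± 0.016 after poly(dA:dT), a fold of 1.25 (adjusted p = 8.67e-43). Between the mimics it was 0.08 higher after poly(I:C) on the log2 scale (adjusted p = 1.55e-06).

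Spp1 (ENSMUSG00000029304, chromosome 5, 104435118 to 104441050, plus strand), which encodes osteopontin, a secreted phosphoprotein that binds integrins, had 191.6, 197.1 and 179.6 CPM after poly(I:C), 204.3, 198.2 and 210.0 after poly(dA:dT), and 280.4, 268.8 and 275.8 in mock. Every library of either mimic was below every mock library, and the mimics were close to each other. Its log2 fold change was -0.53 ± 0.026 (SE) after poly(I:C) (edgeR adjusted p = 2.02e-42) and -0.43 ± 0.026 after poly(dA:dT) (adjusted p = 3.41e-33). Tgfbi (ENSMUSG00000035493, chromosome 13, 56609523 to 56639562, plus strand), whose product links collagens to integrins, had 5.67, 4.82 and 4.68 CPM after poly(I:C), 5.41, 5.3 and 5.69 after poly(dA:dT), and 6.55, 6.68 and 7.1 in mock. Both mimics lay below mock for Tgfbi and overlapped with each other. Its log2 fold change was -0.41 ± 0.126 after poly(I:C) (adjusted p = 0.00198) and -0.30 ± 0.121 after poly(dA:dT) (adjusted p = 0.0273). The poly(dA:dT) call of Tgfbi was lost with DESeq2, with scaling by total counts, and without poly(dA:dT) replicate 1, poly(dA:dT) replicate 2 or mock replicate 3, where its log2 fold change was -0.30, -0.28 and -0.28. With total counts this group of 3 genes gave 1 higher and 1 lower after poly(dA:dT) in place of 1 and 2.

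The matricellular proteins, which modulate how cells meet the matrix more than they build it, moved in both directions. After poly(I:C) 1 of the 5 rose, 2 fell and 2 were not called, where 39.8% of all genes rose and 36.3% fell. After poly(dA:dT) none rose, 2 fell and 3 were not called, where 26.6% of all genes rose and 26.2% fell. With scaling by total counts, 2 of the 5 were higher and 2 lower after poly(I:C), with a median of 0.10 in place of -0.01. After poly(dA:dT), total counts gave 1 higher and 1 lower. Sparc (ENSMUSG00000018593, chromosome 11, 55394500 to 55423183, minus strand), a collagen-binding protein, had 557.0, 559.0 and 557.2 CPM after poly(I:C), 908.3, 905.0 and 905.9 after poly(dA:dT), and 1158.1, 1153.2 and 1158.9 in mock. The 3 groups lay far apart and replicates were tight. Its log2 fold change was -1.05 ± 0.018 (SE) after poly(I:C), a fold of 0.482 (edgeR adjusted p = 1.56e-103), and -0.35 ± 0.018 after poly(dA:dT) (adjusted p = 7.78e-42). Poly(I:C) differed from poly(dA:dT) by -0.70 on the log2 scale (adjusted p = 8.02e-78).

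Tnc (ENSMUSG00000028364, chromosome 4, 63959785 to 64047015, minus strand), which encodes tenascin C, a glycoprotein made in injured tissue, had 62.9, 64.9 and 66.0 CPM after poly(I:C), 54.1, 53.7 and 54.1 after poly(dA:dT), and 49.1, 52.2 and 50.6 in mock. Poly(I:C) libraries were the highest and no groups overlapped. Tnc had a log2 fold change of 0.35 ± 0.043 after poly(I:C) (edgeR adjusted p = 2.09e-13) and 0.09 ± 0.043 after poly(dA:dT) (adjusted p = 0.0606). The poly(dA:dT) value of Tnc was past the threshold with total counts, with a filter of 50 counts in 3 libraries, with a fit of the compared groups alone, and without mock replicate 2 (0.12). Thbs1 (ENSMUSG00000040152, chromosome 2, 118111876 to 118127133, plus strand), which encodes thrombospondin 1, an activator of latent TGF-β, had 227.2, 229.2 and 226.1 CPM after poly(I:C), 207.2, 212.2 and 202.9 after poly(dA:dT), and 223.9, 229.3 and 221.7 in mock. Only the poly(dA:dT) libraries stood apart. Its log2 fold change after poly(dA:dT) was -0.12 ± 0.025 (adjusted p = 2.44e-05), a call that total counts did not keep, and after poly(I:C) it was 0.02 (adjusted p = 0.565). The poly(I:C) value of Thbs1 was called higher with total counts (0.13) and with the filter of 50 counts (0.06). Poly(I:C) was 0.13 ± 0.026 above poly(dA:dT) (adjusted p = 1.62e-06).

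Thbs2, the related thrombospondin 2, averaged 8.8 ± 1.22 CPM after poly(I:C), 12.3 ± 0.486 after poly(dA:dT) and 13.7 ± 1.94 in mock (SD, n = 3). It fell after poly(I:C), at a log2 fold change of -0.63 ± 0.097 (edgeR adjusted p = 3.09e-09), and was -0.15 after poly(dA:dT) (adjusted p = 0.159, and called without mock replicate 2, at -0.26). Postn, which encodes periostin, a collagen-binding glycoprotein, averaged 5.08 ± 0.597 CPM after poly(I:C), 4.3 ± 0.721 after poly(dA:dT) and 5.15 ± 0.144 in mock. Its groups overlapped in all 3 comparisons. No call was made for Postn, although leaving out poly(dA:dT) replicate 3 gave a called log2 fold change of -0.41 after poly(dA:dT) and of 0.39 between poly(I:C) and poly(dA:dT).

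Of the 12 elastic fibre and microfibril genes, 7 were tested, and all 7 were called lower after poly(I:C) than in mock, or 6 of 7 with total counts, beside 36.3% of all genes. The 7 were also called lower after poly(I:C) than after poly(dA:dT), beside 32.1% of all genes. Each of the 7 had a mean of at least 10 CPM. Of all such genes 47.8% fell after poly(I:C) and 36.7% after poly(dA:dT), and 43.2% were lower after poly(I:C) than after poly(dA:dT). The mock call of Fbn1 had limits given with its values. After poly(dA:dT) 5 of the 7 fell, 1 rose and 1 was not called, where 26.2% of all genes fell and 26.6% rose. With DESeq2 size factors none of the 7 rose. Emilin1 (ENSMUSG00000029163, chromosome 5, 30913402 to 30921277, plus strand), a glycoprotein at the interface of elastin and microfibrils, had 96.6, 96.6 and 107.7 CPM after poly(I:C), 144.7, 142.9 and 145.1 after poly(dA:dT), and 213.7, 206.7 and 211.4 in mock. Its groups were well separated, with poly(dA:dT) in the middle. Emilin1 had a log2 fold change of -1.08 ± 0.03 (SE) after poly(I:C), a fold of 0.474 (edgeR adjusted p = 1.17e-74), and -0.55 ± 0.028 after poly(dA:dT) (adjusted p = 5.9e-41).

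Efemp2 (ENSMUSG00000024909, chromosome 19, 5473954 to 5482517, plus strand) encodes fibulin-4, which elastic fibre assembly requires. It had 188.2, 192.2 and 192.0 CPM after poly(I:C), 223.7, 224.6 and 223.2 after poly(dA:dT), and 270.1, 271.7 and 262.0 in mock. No groups overlapped for Efemp2, and its log2 fold change was -0.49 ± 0.025 after poly(I:C) (edgeR adjusted p = 1.72e-42) and -0.26 ± 0.024 after poly(dA:dT) (adjusted p = 6.07e-19). Mfap2 (ENSMUSG00000060572, chromosome 4, 141010418 to 141015984, plus strand), a microfibril glycoprotein gene, had 11.0, 10.4 and 11.9 CPM after poly(I:C), 14.9, 14.5 and 16.3 after poly(dA:dT), and 17.0, 19.1 and 17.5 in mock. The order of groups was the same as for Efemp2. Mfap2 had a log2 fold change of -0.69 ± 0.084 after poly(I:C) (adjusted p = 1.87e-13) and -0.23 ± 0.078 after poly(dA:dT) (adjusted p = 0.00892), the poly(dA:dT) call being lost with total counts and without poly(dA:dT) replicate 2 (-0.19) or mock replicate 2 (-0.18).

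The fibulins link elastin to microfibrils and basement membranes. Fbln2 averaged 262.4 ± 4.88 CPM after poly(I:C), 382.9 ± 3.61 after poly(dA:dT) and 423.6 ± 7.84 in mock (SD, n = 3), a log2 fold change of -0.69 ± 0.023 after poly(I:C) (edgeR adjusted p = 3.26e-66) and -0.15 after poly(dA:dT) (adjusted p = 1.63e-09). Fbln1 averaged 78.6 ± 2.76 CPM after poly(I:C), 90.8 ± 1.22 after poly(dA:dT) and 104.8 ± 1.02 in mock, and fell after both mimics (log2 fold changes of -0.42 after poly(I:C) and -0.21 after poly(dA:dT)). Fbln5 averaged 20.1 ± 0.949 CPM after poly(I:C), 25.9 ± 0.562 after poly(dA:dT) and 28.0 ± 0.476 in mock. It fell after poly(I:C), at -0.48 (adjusted p = 2.05e-11), and was -0.11 after poly(dA:dT) (adjusted p = 0.111).

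Fbn1 (ENSMUSG00000027204, chromosome 2, 125300594 to 125507993, minus strand), which encodes fibrillin-1, the backbone of microfibrils, had 74.0, 73.8 and 76.9 CPM after poly(I:C), 80.5, 84.7 and 87.7 after poly(dA:dT), and 76.2, 81.4 and 80.4 in mock. Mock overlapped with both mimics, and only the mimics were separate from each other. Fbn1 had a log2 fold change of -0.08 ± 0.038 after poly(I:C) (edgeR adjusted p = 0.0418) and 0.09 ± 0.037 after poly(dA:dT) (adjusted p = 0.0284). Neither call was firm. The poly(I:C) call was lost with the filter of 50 counts and without poly(I:C) replicate 1 (-0.08), poly(I:C) replicate 2 (-0.07), mock replicate 2 (-0.07) or mock replicate 3 (-0.08), and its sign turned with total counts. The poly(dA:dT) call was lost with DESeq2, with DESeq2 size factors, without a filter, and without poly(dA:dT) replicate 2 (0.09), poly(dA:dT) replicate 3 (0.06) or mock replicate 1 (0.06). Directly compared, Fbn1 was lower after poly(I:C) than after poly(dA:dT), with a log2 difference of -0.17 ± 0.038 (adjusted p = 2.46e-05). Exons of Gm9913 on the other strand overlap 20.1% of the Fbn1 exon length, and the kit does not mark strand, but Gm9913 had 45 counts in all libraries together, against 15825 for Fbn1.

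Of the 4 lysyl oxidases, copper enzymes that oxidise lysines of collagen and elastin so that they crosslink, 3 fell and 1 rose after each mimic. Over all genes, 36.3% fell and 39.8% rose after poly(I:C), and 26.2% fell and 26.6% rose after poly(dA:dT). The largest change among the 4 lysyl oxidases was the rise of Loxl3 (ENSMUSG00000000693, chromosome 6, 83034173 to 83052562, plus strand) after poly(I:C). It had 52.2, 59.7 and 59.7 CPM after poly(I:C), 32.0, 33.9 and 33.5 after poly(dA:dT), and 30.7, 30.5 and 26.9 in mock. Poly(I:C) libraries were far above the rest, and the poly(dA:dT) libraries lay just above mock. Loxl3 had a log2 fold change of 0.95 ± 0.052 (SE) after poly(I:C), a fold of 1.93 (edgeR adjusted p = 1.31e-38), and 0.17 ± 0.056 after poly(dA:dT) (adjusted p = 0.00736). The poly(dA:dT) call was lost with DESeq2 and without mock replicate 3 (0.11). Of the Loxl3 exon length 11.6% is shared with Htra2, a gene on the other strand, and reads there cannot be told apart without strand. Htra2, a mitochondrial protease gene, averaged 93.4 ± 3.51 CPM after poly(I:C), 64.6 ± 1.83 after poly(dA:dT) and 65.5 ± 1.99 in mock (SD, n = 3), a log2 fold change of 0.51 ± 0.038 after poly(I:C) (adjusted p = 3.73e-27), and its part in the Loxl3 value was not tested.

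Lox itself (ENSMUSG00000024529, chromosome 18, 52516067 to 52529867, minus strand) fell more after poly(dA:dT). It had 168.8, 170.2 and 169.1 CPM after poly(I:C), 144.4, 155.4 and 147.7 after poly(dA:dT), and 198.3, 200.6 and 196.9 in mock. The groups did not overlap, and poly(dA:dT) was the lowest. Lox had a log2 fold change of -0.23 ± 0.027 after poly(I:C) (edgeR adjusted p = 7.58e-14) and -0.41 ± 0.027 after poly(dA:dT) (adjusted p = 2.02e-30), and poly(I:C) was 0.18 ± 0.028 above poly(dA:dT) (adjusted p = 5.42e-09). Loxl1 (ENSMUSG00000032334, chromosome 9, 58287738 to 58313186, minus strand), which acts on elastin, had 84.6, 86.6 and 91.6 CPM after poly(I:C), 111.7, 115.3 and 114.1 after poly(dA:dT), and 143.3, 141.5 and 139.0 in mock. In contrast to Lox, poly(I:C) gave its lowest libraries. Loxl1 had a log2 fold change of -0.69 ± 0.033 after poly(I:C) (adjusted p = 8.94e-47) and -0.32 ± 0.031 after poly(dA:dT) (adjusted p = 9.22e-18). Loxl2 averaged 82.1 ± 2.87 CPM after poly(I:C), 93.9 ± 0.829 after poly(dA:dT) and 104.5 ± 1.9 in mock, and fell after both mimics, with log2 fold changes of -0.34 after poly(I:C) and -0.16 after poly(dA:dT).

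**Figure D4:**
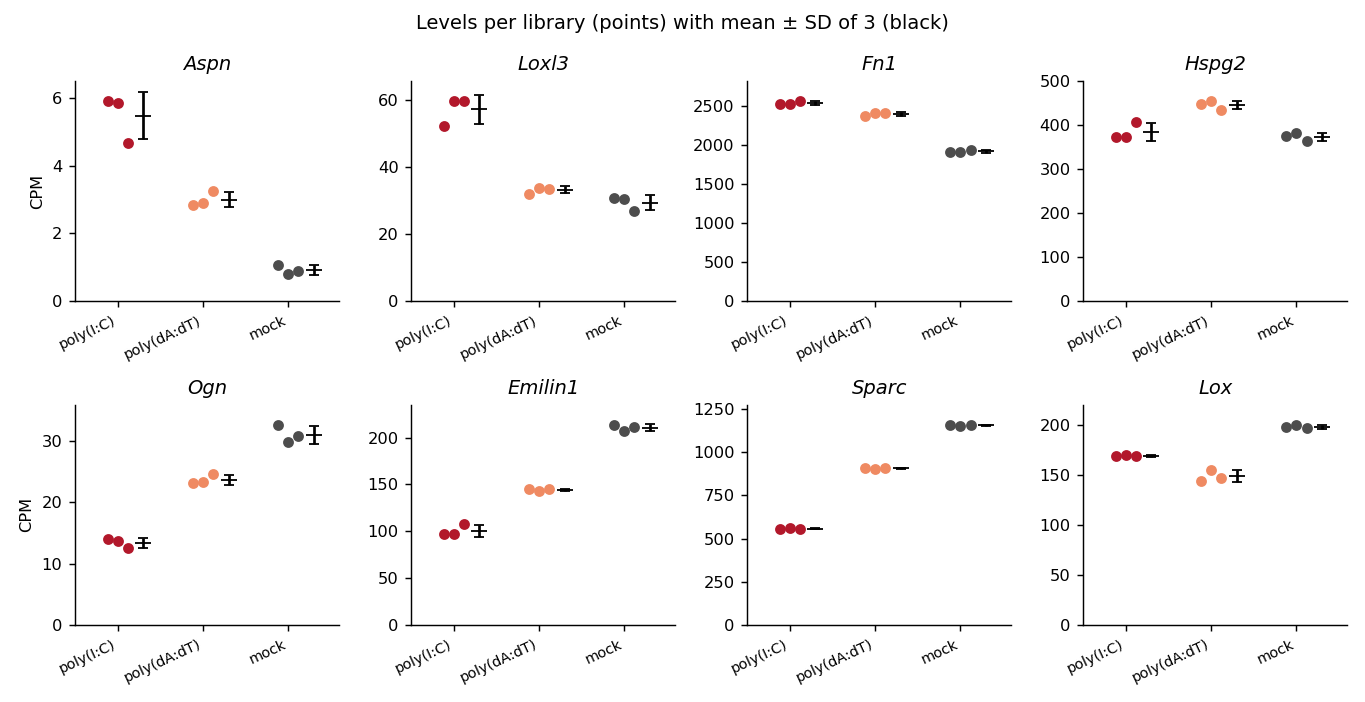
CPM (vertical axis, linear, from 0) of 8 matrix genes in each library, as points by group, with the mean ± SD of 3 libraries in black beside them. Aspn, Loxl3 and Fn1 are highest after poly(I:C), Hspg2 is highest after poly(dA:dT), and Ogn, Emilin1, Sparc and Lox are highest in mock, with Lox lowest after poly(dA:dT).

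The small leucine-rich proteoglycans, short proteins that coat collagen fibrils, held the largest rise and the largest fall of the 32 tested members after poly(I:C), in genes that are neighbours. Aspn (ENSMUSG00000021388, chromosome 13, 49544443 to 49567565, plus strand) encodes asporin, which binds collagen and TGF-β. It had 5.91, 5.86 and 4.68 CPM after poly(I:C), 2.83, 2.91 and 3.26 after poly(dA:dT), and 1.07, 0.788 and 0.894 in mock, from 78 to 136 counts per library after poly(I:C), 59 to 75 after poly(dA:dT) and 17 to 30 in mock. The groups were separate, with mock lowest. Aspn had a log2 fold change of 2.57 ± 0.197 (SE) after poly(I:C), a fold of 5.93 (edgeR adjusted p = 5.87e-26), and 1.69 ± 0.217 after poly(dA:dT), a fold of 3.22 (adjusted p = 8.96e-12). Poly(I:C) was 0.88 ± 0.158 above poly(dA:dT), a fold of 1.84 (adjusted p = 3.74e-07). Leaving out any single library gave 2.46 to 2.71 after poly(I:C) and 1.58 to 1.84 after poly(dA:dT).

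Ogn (ENSMUSG00000021390, chromosome 13, 49608046 to 49624501, plus strand), which encodes osteoglycin, starts 40.5 kb past the end of Aspn on the same strand. It had 14.0, 13.7 and 12.5 CPM after poly(I:C), 23.2, 23.3 and 24.7 after poly(dA:dT), and 32.7, 29.8 and 30.9 in mock. No groups overlapped, and the order of the groups was the reverse of that for Aspn. Ogn had a log2 fold change of -1.21 ± 0.07 after poly(I:C), a fold of 0.431 (edgeR adjusted p = 3.31e-37), and -0.40 ± 0.062 after poly(dA:dT) (adjusted p = 1.08e-08). The 300 bases around the RefSeq start of each gene, from 250 before to 50 after it, are given here because the neighbours moved in opposite directions (RefSeq, GRCm38.p6, 5′ to 3′ on the gene's strand). Capitals mark matches to the motifs named further on. The windows are chr13:49544193-49544492, plus strand, for Aspn and chr13:49607765-49608064, plus strand, for Ogn.
Aspn: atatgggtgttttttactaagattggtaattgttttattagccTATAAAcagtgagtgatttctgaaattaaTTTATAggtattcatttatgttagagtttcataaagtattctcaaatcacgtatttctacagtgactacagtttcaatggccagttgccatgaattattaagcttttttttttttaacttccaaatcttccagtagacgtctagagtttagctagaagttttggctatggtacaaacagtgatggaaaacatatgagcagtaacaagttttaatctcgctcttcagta
Ogn: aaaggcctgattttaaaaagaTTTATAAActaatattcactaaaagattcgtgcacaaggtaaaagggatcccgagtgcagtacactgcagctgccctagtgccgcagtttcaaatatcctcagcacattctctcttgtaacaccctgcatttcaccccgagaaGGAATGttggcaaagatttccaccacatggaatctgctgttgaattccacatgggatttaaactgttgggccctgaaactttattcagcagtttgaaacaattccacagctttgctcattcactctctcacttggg

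The capitals in the Aspn window are the letters of the TATA box motif, at -207 and, on the other strand, at -178 from the start. In the Ogn window they are 2 overlapping TATA box matches at -229 and -227 and 1 TEAD motif match on the other strand at -86. Neither window holds the AP-1, ISRE core, NF-kB or CArG box letters.

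Between Aspn and Ogn lies Omd, and Ecm2 lies on the other side of Aspn, both genes of related leucine-rich proteins. These neighbours were looked up after the values of Aspn and Ogn had been seen. Ecm2 had 18, 23 and 18 counts after poly(I:C), 20, 11 and 11 after poly(dA:dT), and 11, 6 and 0 in mock. Its counts were low and did not reach the filter in mock alone, and its log2 fold change was 2.01 ± 0.439 after poly(I:C) (edgeR adjusted p = 1.74e-05) and 1.38 ± 0.472 after poly(dA:dT) (adjusted p = 0.0094). Omd had 15, 15 and 10 counts after poly(I:C), 15, 16 and 18 after poly(dA:dT), and 25, 34 and 13 in mock, and was called in neither comparison (adjusted p = 0.0954 after poly(I:C) and 0.228 after poly(dA:dT)). Cenpp, a centromere protein gene on the other strand that spans all of them and shares 7 exon bases with Aspn, was not called either, at 0.07 ± 0.081 after poly(I:C) (adjusted p = 0.404) and -0.07 ± 0.081 after poly(dA:dT) (adjusted p = 0.507). Farther out, Ippk and Iars rose after both mimics, by 0.37 and 0.44 after poly(I:C) and by 0.27 and 0.26 after poly(dA:dT), and Nol8 rose after poly(I:C), by 0.37, and was 0.10 after poly(dA:dT) (adjusted p = 0.0843).

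**Figure D5:**
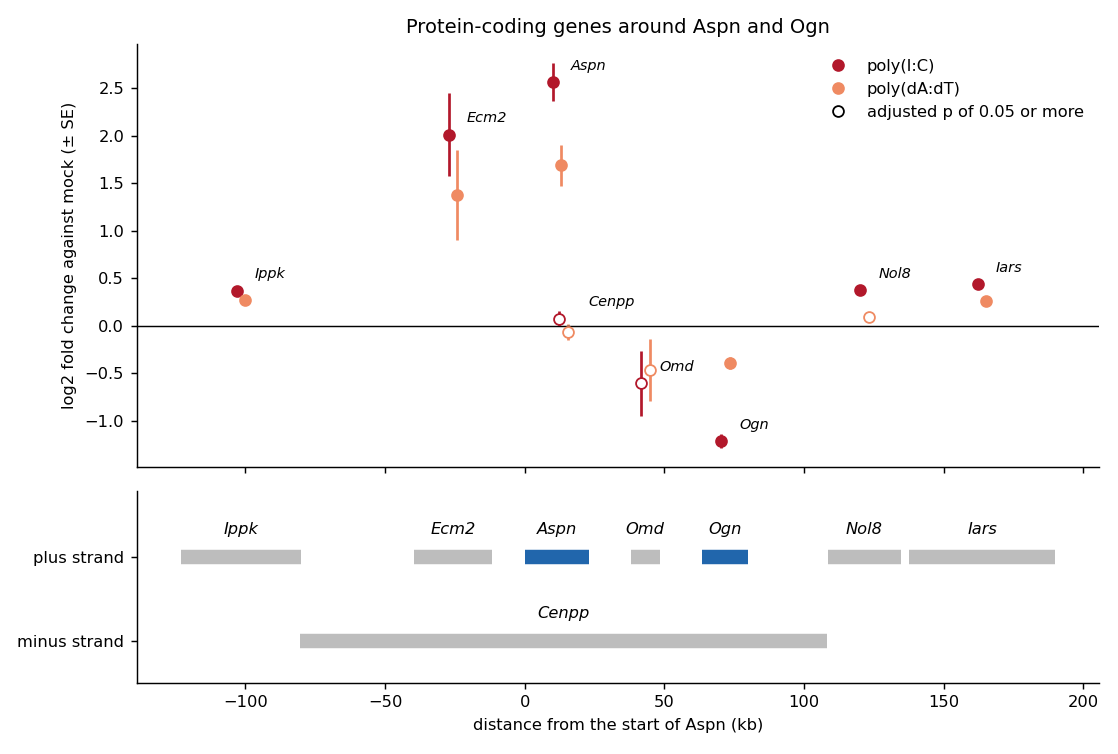
Upper panel: log2 fold change against mock (± SE) of the protein-coding genes within 100 kb of Aspn and Ogn, at their distance from the Aspn start in kb, for poly(I:C) (dark red) and poly(dA:dT) (orange), with open symbols for an adjusted p of 0.05 or more; lower panel: extent and strand of each gene, with Aspn and Ogn in blue. Ecm2 and Aspn are the highest, Ogn is the lowest after poly(I:C), and Cenpp on the other strand lies near 0.

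Decorin and biglycan are the best known members of this family. Dcn averaged 6.81 ± 1.01 CPM after poly(I:C), 6.29 ± 0.504 after poly(dA:dT) and 7.84 ± 0.787 in mock (SD, n = 3). Dcn had a log2 fold change of -0.20 after poly(I:C) (edgeR adjusted p = 0.11) and -0.33 ± 0.114 after poly(dA:dT) (adjusted p = 0.00954). Single libraries decided the calls of Dcn. Its poly(I:C) value passed the threshold without poly(I:C) replicate 2 (-0.33) or mock replicate 3 (-0.27), and its poly(dA:dT) value missed it without poly(dA:dT) replicate 3 (-0.29) or mock replicate 1 (-0.25) and with DESeq2. Bgn averaged 6.56 ± 0.509 CPM after poly(I:C), 7.15 ± 0.61 after poly(dA:dT) and 8.91 ± 0.716 in mock. It fell after both mimics, with log2 fold changes of -0.43 after poly(I:C) (adjusted p = 0.000288) and -0.31 after poly(dA:dT) (adjusted p = 0.00988), the poly(dA:dT) call being lost with total counts and without poly(dA:dT) replicate 3 (-0.25) or mock replicate 3 (-0.26). Lum, the gene of lumican, lies 47.0 kb from Dcn, and its 9 libraries held 1 count in all, in mock replicate 1.

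Both large proteoglycans were higher after 1 of the mimics, beside 39.8% of all genes after poly(I:C) and 26.6% after poly(dA:dT). Vcan (ENSMUSG00000021614, chromosome 13, 89655312 to 89742509, minus strand), which encodes versican, a hyaluronan-binding proteoglycan, had 91.9, 88.3 and 84.5 CPM after poly(I:C), 75.7, 77.0 and 73.7 after poly(dA:dT), and 71.8, 75.2 and 75.0 in mock. Poly(I:C) was above the rest, and poly(dA:dT) overlapped with mock. Vcan had a log2 fold change of 0.26 ± 0.037 after poly(I:C) (edgeR adjusted p = 2.52e-10) and 0.03 after poly(dA:dT) (adjusted p = 0.515, called only with total counts among the settings tried). Hspg2 (ENSMUSG00000028763, chromosome 4, 137468769 to 137570630, plus strand), which encodes perlecan, the heparan sulfate proteoglycan of basement membranes, had 374.1, 372.7 and 408.1 CPM after poly(I:C), 447.1, 454.9 and 435.2 after poly(dA:dT), and 374.4, 381.8 and 363.0 in mock. Only the poly(dA:dT) libraries stood apart, above both other groups. Hspg2 had a log2 fold change of 0.26 ± 0.023 after poly(dA:dT) (adjusted p = 7.44e-17), and poly(I:C) differed from poly(dA:dT) by -0.21 ± 0.024 (adjusted p = 1.88e-13). After poly(I:C) it was 0.04 ± 0.024 (adjusted p = 0.101), and it was called higher with total counts (0.16), with the filter of 50 counts (0.09), and without poly(I:C) replicate 1 (0.06) or poly(I:C) replicate 2 (0.06).

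All 5 members grouped here as basement membrane glycoproteins fell after poly(I:C), beside 36.3% of all genes. All 5 were also called lower after poly(I:C) than after poly(dA:dT), beside 32.1% of all genes. All but Lama4 had a mean of at least 10 CPM. Of all such genes 47.8% fell after poly(I:C), and 43.2% were lower after poly(I:C) than after poly(dA:dT). Hspg2, also of basement membranes but grouped with the large proteoglycans, was not called after poly(I:C). Of 10 tested basement membrane genes outside the members, 4 rose and 3 fell after poly(I:C), as given below. After poly(dA:dT) 3 of the 5 glycoproteins fell, 1 rose and 1 was not called, where 26.2% of all genes fell and 26.6% rose. With DESeq2 size factors none of the 5 rose. Lamb1, a laminin β chain gene (ENSMUSG00000002900, chromosome 12, 31265234 to 31329644, plus strand), had 55.3, 55.4 and 57.3 CPM after poly(I:C), 78.1, 77.1 and 74.8 after poly(dA:dT), and 69.4, 72.3 and 74.2 in mock. Poly(I:C) was clearly the lowest, and poly(dA:dT) lay just above mock. Lamb1 had a log2 fold change of -0.36 ± 0.041 (SE) after poly(I:C) (edgeR adjusted p = 4.84e-15) and 0.09 ± 0.038 after poly(dA:dT) (adjusted p = 0.0292). The poly(dA:dT) call of Lamb1 was lost with DESeq2, with DESeq2 size factors, without a filter, and without poly(dA:dT) replicate 1 (0.08), poly(dA:dT) replicate 2 (0.09) or mock replicate 1 (0.07). Between the mimics the difference was -0.46 ± 0.04 (adjusted p = 8.24e-21).

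Lamc1, the laminin γ chain gene, averaged 233.6 ± 3.41 CPM after poly(I:C), 255.1 ± 5.62 after poly(dA:dT) and 272.6 ± 4.73 in mock (SD, n = 3). It fell after poly(I:C), at a log2 fold change of -0.22 (edgeR adjusted p = 9.86e-16), and after poly(dA:dT), at -0.10 (adjusted p = 0.00026), where total counts gave no call. Lama4, a laminin α chain gene, averaged 6.77 ± 0.491 CPM after poly(I:C), 8.14 ± 0.446 after poly(dA:dT) and 9.26 ± 1.59 in mock, with -0.44 after poly(I:C) (adjusted p = 0.000188) and -0.17 after poly(dA:dT) (adjusted p = 0.172). Its difference between the mimics, -0.27 (adjusted p = 0.0306), was lost with DESeq2, total counts or the filter of 50 counts, and on leaving out poly(I:C) replicate 2 or either of poly(dA:dT) replicates 1 and 3. Nidogens bridge laminin and collagen networks. Nid1 averaged 360.0 ± 6.45 CPM after poly(I:C), 430.6 ± 7.37 after poly(dA:dT) and 473.7 ± 3.92 in mock, a log2 fold change of -0.40 after poly(I:C) (adjusted p = 3.64e-40) and -0.14 after poly(dA:dT) (adjusted p = 3.99e-09). Nid2 averaged 70.6 ± 3.38 CPM after poly(I:C), 94.9 ± 0.563 after poly(dA:dT) and 106.9 ± 2.64 in mock, a log2 fold change of -0.60 ± 0.036 after poly(I:C) (adjusted p = 1.29e-35) and -0.17 after poly(dA:dT) (adjusted p = 4.02e-06). Nid2 shares 8.4% of its exon length with Rtraf on the other strand, where reads cannot be told apart.

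Both collagen-associated proteins fell after each mimic, beside 36.3% of all genes after poly(I:C) and 26.2% after poly(dA:dT). Pcolce (ENSMUSG00000029718, chromosome 5, 137605103 to 137613784, minus strand), an enhancer of the proteinase that trims procollagen, had 486.4, 482.0 and 492.4 CPM after poly(I:C), 607.7, 593.1 and 585.4 after poly(dA:dT), and 723.6, 737.4 and 717.4 in mock. The groups were separate and poly(dA:dT) lay in the middle. Pcolce had a log2 fold change of -0.58 ± 0.02 after poly(I:C) (edgeR adjusted p = 3.93e-63) and -0.29 ± 0.019 after poly(dA:dT) (adjusted p = 1.45e-29). Dpt (ENSMUSG00000026574, chromosome 1, 164796644 to 164824266, plus strand), which encodes dermatopontin, a small protein that binds decorin and collagen, had 0.824, 0.947 and 0.719 CPM after poly(I:C), 0.766, 0.812 and 1.09 after poly(dA:dT), and 1.47, 2.03 and 1.89 in mock. Both mimics were below every mock library and overlapped with each other. Dpt had a log2 fold change of -1.08 ± 0.281 after poly(I:C) (adjusted p = 0.000303) and -0.99 ± 0.271 after poly(dA:dT) (adjusted p = 0.000922), and -0.08 between the mimics (adjusted p = 0.835).

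Elastic fibre genes made up most of the 7 members that were too scarce to test. Eln, the elastin gene, had 0, 1 and 3 counts after poly(I:C), 1, 1 and 2 after poly(dA:dT), and 0 in each mock library. Fbn2, the gene of fibrillin-2, had 3, 3 and 2 counts after poly(I:C), 0 in each poly(dA:dT) library, and 0, 1 and 0 in mock. At these depths, 3 counts correspond to between 0.107 and 0.18 CPM per library. Mfap4, a microfibril-associated gene, had 0, 1 and 1 counts after poly(I:C), 0, 1 and 0 after poly(dA:dT), and 0 in each mock library. Mfap5 had 7, 1 and 3 counts after poly(I:C), 0 in each poly(dA:dT) library, and 5, 2 and 0 in mock. Efemp1, the gene of fibulin-3, had 7, 8 and 0 counts after poly(I:C), 2, 0 and 5 after poly(dA:dT), and 6, 4 and 2 in mock. These genes did not enter the reported fit. Prelp, of the small leucine-rich family, had 5, 2 and 2 counts after poly(I:C), 7, 6 and 7 after poly(dA:dT), and 14, 10 and 7 in mock, and it was not tested.

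The promoters of the members were searched on both strands for 6 motifs. A window was found in the RefSeq table for 24 of the 39 members, and the shares below are over these 24 and over the 27025 genes of the table. The ISRE core (GAAA, any 2 bases, GAAA), a motif of interferon-regulated promoters, was present in 5 members, Fbn1, Mfap2, Spp1, Fbln5 and Tgfbi, or 20.8%, beside 3.99% of all genes. The TATA box, TATAAA, was present in 7 members, or 29.2%, beside 15.7%, and the TEAD motif, CATTCC, in 3, or 12.5%, beside 16.6%. The AP-1 motif, TGANTCA, was present in 1 member, or 4.17%, beside 8.97%. The NF-kB motif (GGGA, any 1 base, TTTCC) and the CArG box were present in none of the 24, beside 0.466% and 1.81%. These are matches of letters in a short window and do not show binding.

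Tgfbi is shown as a member with the ISRE core letters, in capitals at -194 from its start (chr13:56609336-56609635, plus strand). Sparc, with a large fall and none of the 6 motifs, is shown beside it (chr11:55420031-55420330, minus strand).
Tgfbi: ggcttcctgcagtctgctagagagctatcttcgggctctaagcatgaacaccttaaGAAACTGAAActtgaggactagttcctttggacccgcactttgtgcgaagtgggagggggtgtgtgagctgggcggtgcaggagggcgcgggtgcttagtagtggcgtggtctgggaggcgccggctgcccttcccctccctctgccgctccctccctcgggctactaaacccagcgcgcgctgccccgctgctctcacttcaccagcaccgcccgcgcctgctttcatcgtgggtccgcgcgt
Sparc: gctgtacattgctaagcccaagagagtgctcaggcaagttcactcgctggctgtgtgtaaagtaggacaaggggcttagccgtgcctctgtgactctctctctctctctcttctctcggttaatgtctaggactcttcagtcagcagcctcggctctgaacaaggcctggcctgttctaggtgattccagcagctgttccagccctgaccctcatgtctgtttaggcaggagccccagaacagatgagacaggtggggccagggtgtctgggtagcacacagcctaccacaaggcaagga

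Other genes of matrix biology were described from 6 lists, as context. The counts of all 6 lists stand beside the shares over all genes tested. These were 39.8% higher and 36.3% lower after poly(I:C), and 26.6% higher and 26.2% lower after poly(dA:dT). Of 10 tested basement membrane genes outside the members, 4 rose and 3 fell after poly(I:C), and 3 rose and 3 fell after poly(dA:dT). With total counts the poly(I:C) split was 6 and 3. The poly(dA:dT) split was 4 and 2 with total counts, and 2 and 3 with DESeq2 size factors. The median log2 fold change of these 10 was 0.43 after poly(I:C) and 0.05 after poly(dA:dT). Lama3, the laminin α chain of epithelial basement membranes, averaged 9.94 ± 0.706 CPM after poly(I:C), 2.65 ± 0.0445 after poly(dA:dT) and 1.22 ± 0.293 in mock (SD, n = 3), a log2 fold change of 2.99 ± 0.159 after poly(I:C) (edgeR adjusted p = 1.04e-40) and 1.08 ± 0.202 after poly(dA:dT) (adjusted p = 1.43e-06). Dag1, the gene of the laminin receptor dystroglycan, averaged 191.5 ± 3.41 CPM after poly(I:C), 295.3 ± 2.15 after poly(dA:dT) and 367.4 ± 4.63 in mock, and fell after both mimics, at log2 fold changes of -0.94 after poly(I:C) and -0.32 after poly(dA:dT). Among 32 other matrix glycoproteins 10 rose and 16 fell after poly(I:C), and 5 rose and 11 fell after poly(dA:dT), with medians of -0.19 after poly(I:C) and -0.10 after poly(dA:dT). Hmcn2, a hemicentin gene, rose after both, to 9.16 ± 1.24 CPM after poly(I:C) and 8.56 ± 0.352 after poly(dA:dT), against 4.38 ± 0.341 in mock. Tnn, a tenascin gene, averaged 3.4 ± 0.455 CPM after poly(I:C), 0.355 ± 0.106 after poly(dA:dT) and 0.287 ± 0.0803 in mock, and reached the filter only through its poly(I:C) libraries.

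Glycosaminoglycans are sugar chains, and most listed genes for their synthesis fell after poly(I:C). The same list held the largest rises among the listed genes named here, those of the hyaluronan synthase genes Has2 and Has3 after poly(I:C). Of 32 glycosaminoglycan synthesis genes 6 rose and 22 fell after poly(I:C), where 39.8% of all genes rose and 36.3% fell. After poly(dA:dT), 3 of the 32 rose and 19 fell, or 5 and 15 with total counts, where 26.6% of all genes rose and 26.2% fell. The median log2 fold change of this list was -0.35 after poly(I:C) and -0.15 after poly(dA:dT). Has2, a hyaluronan synthase gene, averaged 85.1 ± 1.6 CPM after poly(I:C), 6.86 ± 0.81 after poly(dA:dT) and 4.29 ± 0.777 in mock (SD, n = 3). Has2 had a log2 fold change of 4.28 ± 0.072 after poly(I:C) (edgeR adjusted p = 5.52e-106) and 0.65 ± 0.113 after poly(dA:dT) (adjusted p = 2.25e-07). Has3, another hyaluronan synthase gene, averaged 21.3 ± 0.267 CPM after poly(I:C), 2.6 ± 0.4 after poly(dA:dT) and 1.2 ± 0.0587 in mock, a log2 fold change of 4.15 ± 0.133 after poly(I:C) (adjusted p = 2.85e-67) and 1.12 ± 0.198 after poly(dA:dT) (adjusted p = 3.92e-07). Hyaluronan is a glycosaminoglycan that versican binds.

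Of 14 other proteoglycans 2 rose and 6 fell after each mimic, or 1 and 6 after poly(dA:dT) with DESeq2 size factors. Their median log2 fold change was -0.36 after poly(I:C) and -0.25 after poly(dA:dT). Among the syndecans, proteoglycans of the cell surface, Sdc4 rose and Sdc1 fell after poly(I:C). Sdc4 averaged 283.2 ± 5.76 CPM after poly(I:C), 119.1 ± 5.05 after poly(dA:dT) and 113.3 ± 3.02 in mock (SD, n = 3), and rose by 1.32 ± 0.028 after poly(I:C) (edgeR adjusted p = 1.61e-91). Sdc1 averaged 78.8 ± 3.97 CPM after poly(I:C), 122.9 ± 1.53 after poly(dA:dT) and 146.9 ± 1.94 in mock, and fell after both mimics, at log2 fold changes of -0.90 ± 0.033 after poly(I:C) (adjusted p = 1.34e-59) and -0.26 after poly(dA:dT).

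Of 20 other crosslinking and collagen-modifying enzymes 4 rose and 14 fell after poly(I:C), and 1 rose and 10 fell after poly(dA:dT), or 2 and 4 with total counts. Their median log2 fold change was -0.23 after poly(I:C) and -0.08 after poly(dA:dT). Serpinh1, the gene of the collagen chaperone HSP47, averaged 400.9 ± 12.2 CPM after poly(I:C), 597.0 ± 10.5 after poly(dA:dT) and 730.3 ± 18.1 in mock (SD, n = 3), a log2 fold change of -0.87 ± 0.021 after poly(I:C) (edgeR adjusted p = 1.1e-82) and -0.29 ± 0.02 after poly(dA:dT) (adjusted p = 8.73e-29). Pcolce2, the paralog of Pcolce, averaged 12.4 ± 0.565 CPM after poly(I:C), 18.1 ± 0.493 after poly(dA:dT) and 22.3 ± 0.6 in mock, and fell after both mimics, as Pcolce did. Of 25 matrix receptors 7 rose and 12 fell after poly(I:C), or 9 and 10 with total counts, and 2 rose and 9 fell after poly(dA:dT), or 6 and 6 with total counts. The median of the receptors was -0.04 after poly(I:C) and -0.05 after poly(dA:dT), or 0.08 and 0.02 with total counts. The larger changes of receptors after poly(I:C) were rises. There, 3 receptors were called and at least 2-fold higher and 0 at least 2-fold lower, and log2 fold changes ran from -0.93 to 2.37. The same held over all genes tested, where 13.1% were called and at least 2-fold higher and 1.04% at least 2-fold lower. Itga2 and Itga10, both integrin genes, were among the receptors that rose after poly(I:C). Itgb5, the integrin β5 gene, averaged 80.5 ± 2.8 CPM after poly(I:C), 124.8 ± 2.19 after poly(dA:dT) and 154.1 ± 2.73 in mock, and fell after both mimics, at log2 fold changes of -0.93 after poly(I:C) and -0.31 after poly(dA:dT). The order of the group means in Serpinh1, Pcolce2 and Itgb5 was that of Sparc, Emilin1 and Ogn, with poly(I:C) lowest and mock highest. All of these were named for large changes, and Dag1 and Sdc1 had this order too. So did Actg1, an actin gene outside the lists, at 2148.7 CPM after poly(I:C), 2870.8 after poly(dA:dT) and 3435.7 in mock. Over all genes tested, 24.3% fell after both mimics.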

How the data were processed

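RNA was sequenced from 9 libraries, 3 per group. Per the labels' protocols, RNA was extracted with RNeasy and libraries were made with TruSeq v2, which does not mark strand. The values deposited by the authors were raw read counts per Ensembl gene. The submitters' processing notes name the tools TopHat2 2.1.0, HTSeq and DESeq2 and the build GRCm38.p4. Which annotation release and strand setting they used, and how multiply mapped reads were counted are points not given in the sources used here. Of 46603 identifiers, 46091 matched GENCODE M21, and the other 512 held 0.0588% of the counts. Every symbol of the 39 genes matched.

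Testing of the counts was done by edgeR 4.0.16, run under R 4.3.3 (quasi-likelihood, robust, two-sided, TMM scaling) in 1 fit of all 9 libraries with a mean per group and 6 residual degrees of freedom. filterByExpr left 14176 genes, with a minimum of 0.447 CPM. Benjamini-Hochberg adjustment ran over these genes, with a threshold of 0.05. Standard errors (SE) were obtained from the fitted log2 fold change and its F statistic (size over root F). CPM used TMM-scaled library sizes, RPKM divided these by merged exon length, and both are mean ± SD of 3 libraries. Alternatives were DESeq2 1.42.0, other scalings, other filters, a fit of the compared groups alone, a block, and leaving out each library. The script was tested on simulated data with known changes in a small set of genes. That simulation does not test the scaling where most genes are called, as they were here.

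Replicate pairs gave a chi-square per degree of freedom of 1.64 to 2.1, so no pair agreed within sampling noise. The labels name no batch and do not say that replicates were separate cultures, and the p-values therefore reflect spread among these libraries that could be technical. The level set by 3 counts covers counting error only. The 39 genes, the 6 pathway lists of 172 genes and the 10 marker lists were chosen with earlier results of these data known. Values in every library are given for the members with the 6 largest rises and the 6 largest falls in each comparison with mock (called, at least 1 CPM in a group), those called in opposite directions by the mimics, the 5 highest per length in mock, and those outside the filter. Thbs1 and Tgfbi were added after their values were seen. From each list at most 3 called genes per comparison with mock were eligible.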

Additional observations from a re-analysis of the deposited data

How the results depend on the processing

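Under the alternatives 143 counts of members stayed within 1.5 times the reported count and 1 did not, the number that rose after poly(dA:dT), which was 3 with DESeq2 in place of 6. Leaving out 1 library gave 5 to 6 members higher and 22 to 23 lower after poly(I:C), 4 to 7 higher and 18 to 20 lower after poly(dA:dT), and 7 to 8 higher and 19 to 20 lower between poly(I:C) and poly(dA:dT). Total counts moved the median of all genes by 0.114 on the log2 scale for poly(I:C) and by 0.074 for poly(dA:dT). Replicate numbers did not pair the libraries: deviations of same-numbered libraries correlated at -0.014 to 0.023. The fit with a replicate block called 23 members lower and 5 higher after poly(I:C), and 20 lower and 6 higher after poly(dA:dT), as without it.

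Of the values of single genes 2315 kept direction and side of the threshold, 69 lost a call, 22 gained one and 12 changed sign. The sign changes were in values near 0. After poly(I:C), total counts gave 0.031 for Fbn1, 0.036 for Lrp1 and 0.103 for Postn, and the filter of 50 counts gave 0.033 for Postn. Thbs1 was -0.001 with DESeq2 size factors, -0.01 with DESeq2 and -0.011 without a filter. Leaving out 1 library gave -0.003 to 0.064 for Hspg2 and -0.089 to 0.061 for Postn after poly(I:C), -0.093 to 0.254 for Fras1 after poly(dA:dT), and -0.198 to 0.085 for Dpt between the mimics. The cause was not tested. Members under 10 CPM rest on few counts, and Dpt could not be tested with the filter of 50 counts.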
